A study of Homo sapiens with 6 samples.

Results

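The genes described are ATP10B and the phospholipid flippases related to it: 9 genes, made up of the P4-ATPases ATP10B, ATP10A, ATP10D, ATP11A, ATP11B, ATP8B1, ATP8B2 and ATP9A and the accessory subunit TMEM30A. ATP10B was chosen because its transcript rose in MLST8-KO cells, and the others because they belong to its family, so the rise of ATP10B is described here without a test. The genes were matched by symbol in an expression table of 17448 genes, of which 12951 had enough counts to be tested, and 8 of the 9 were found and tested. The expression of ATP10A was not analysed here. For reference, other P4-ATPases and TMEM30B were read from the same table, which gave 12 P4-ATPases reported here, 10 of them tested.

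RNA-seq was performed on HCC2814, a human lung squamous cell carcinoma (LUSC) line. There were 3 samples of WT and 3 of MLST8-KO cells, from independent experiments. WT cells received a non-targeting CRISPR guide and MLST8-KO cells a guide against MLST8, a subunit shared by the kinase complexes mTORC1 and mTORC2, before antibiotic selection. Whether the selected HCC2814 cells were a pool or came from single clones, and whether the replicates of a group carried the same guide sequence, is not given in the sources used here, and no treatment other than the guide separated the groups. Values of single samples are given in the order of replicates 1, 2 and 3. The comparison asks how loss of MLST8, and with it mTORC2, changed gene expression in LUSC cells.

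P4-ATPases use the energy of ATP to move phospholipids from the outer or luminal leaflet of a membrane to its cytosolic leaflet, which keeps phosphatidylserine and phosphatidylethanolamine on the inner side of the plasma membrane. Most of them leave the endoplasmic reticulum only when bound to a TMEM30 (CDC50) subunit, and ATP9A and ATP9B are exceptions that work without one. During each cycle the pump is phosphorylated on an aspartate within a short conserved stretch, aspartate-lysine-threonine-glycine-threonine.

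That stretch is shown first because it is what makes these genes one family, and because it shows how far the sequences that reads are matched to differ between them. The longest coding transcript of 12 human P4-ATPase genes read from the GENCODE annotation of GRCh38 held 1 copy each. These 12 include ATP10A and leave out ATP8B2, so they are not the same 12 as those read from the expression table. Below are 45 coding bases per gene, 5′ to 3′, with the 15 bases that encode the 5 conserved residues in capitals.
ATP10B: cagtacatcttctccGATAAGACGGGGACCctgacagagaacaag
ATP10D: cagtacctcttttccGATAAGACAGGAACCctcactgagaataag
ATP9A: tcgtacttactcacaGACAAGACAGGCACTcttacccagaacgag
ATP8B1: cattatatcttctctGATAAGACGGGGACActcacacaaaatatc
ATP11A: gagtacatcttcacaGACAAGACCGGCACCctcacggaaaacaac
ATP11B: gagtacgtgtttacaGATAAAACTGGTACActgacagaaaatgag

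The ATP10B window lies in exon 12 of 26, at chr5:160634409-160634453 on the minus strand, and that of ATP10D in exon 9 of 23, at chr4:47536839-47536883 on the plus strand. Exon 13 holds the windows of ATP11A, ATP11B and ATP8B1, and the window of ATP9A is split between exons 12 and 13. The ATP10D window differed from that of ATP10B at 7 of 45 bases, those of ATP11A and ATP8B1 at 10 each, that of ATP11B at 13 and that of ATP9A at 15.

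Estimated counts summed to between 14381673 and 15744154 per sample. MLST8 itself, the targeted gene, was at 874, 827 and 842 counts in WT and 396, 629 and 401 in MLST8-KO samples, a log2 fold change of -0.96 (SE 0.15, adjusted p = 0.00339 by edgeR's quasi-likelihood test), so each library matched its label, with less of a fall in MLST8-KO replicate 2. All 8 squamous markers (KRT5, KRT6A, KRT14, KRT17, TP63, SOX2, DSG3 and DSC3) were present in every sample. Liver markers, 10 genes, summed to 10 to 114 counts in WT, to 4279 in MLST8-KO replicate 1 and to 53 to 82 in the other two. Intestinal markers, 7 genes, summed to 15 in every WT sample, to 224 in MLST8-KO replicate 1 and to 19 and 26 in replicates 2 and 3. MLST8-KO replicate 1 therefore stood apart in these transcripts, and values without it are given for the flippase genes and where leaving it out changed the call of another named gene. Between the groups, 2116 of 12951 genes were higher (16.3%) and 2030 lower (15.7%) at an adjusted p under 0.05, and the median log2 fold change was 0.00. Higher genes made up 51.0% of these calls, 62.0% with upper quartile scaling and 71.0% with limma on log2(TPM + 1).

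ATP10B was the gene of the family that differed most between the groups. It is encoded at chr5:160563120-160852214 on the minus strand (Entrez 23120), and its product is a pump of late endosomes and lysosomes that is known to move glucosylceramide and phosphatidylcholine. The WT samples had 44, 22 and 14 counts (0.78, 0.41 and 0.26 TPM), and the MLST8-KO samples 150, 163 and 123 counts (2.69, 2.82 and 2.08 TPM). The lowest MLST8-KO sample was above the highest WT sample by a wide margin, and the WT samples were spread over a larger relative range than the MLST8-KO samples. After TMM scaling the level was 1.81 ± 0.989 CPM in WT and 9.21 ± 1.17 CPM in MLST8-KO cells (SD, n = 3), a 5.07-fold difference of the means. The fitted log2 fold change was 2.33 (SE 0.29), which is above that of 99.9% of the genes tested. No test is attached to these values, since they are what ATP10B was chosen by.

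The WT level of ATP10B rests on few counts. The 14 counts of WT replicate 3 have an exact Poisson 95% interval of 7.65 to 23.5, and the 44 of WT replicate 1 one of 32.0 to 59.1, so these WT samples differed beyond counting error, to which alone the intervals refer. Leaving out WT replicate 1 moved the log2 fold change to 2.85, and leaving out WT replicate 3 moved it to 2.04. Leaving out MLST8-KO replicate 1, the library with liver and intestinal transcripts, gave 2.29 (SE 0.34), against 2.33 (SE 0.29) with all samples. Like the other values here, it comes from bulk RNA, in which more cells with the transcript and more transcript per cell cannot be told apart. An antisense gene overlaps 0.309% of the exonic bases of ATP10B. For other tested pumps antisense genes overlap more: 3.11% of these bases in ATP10D, 4.31% in ATP11B and 4.87% in ATP9B. In ATP8B1 separate antisense genes overlap 1.59% and 2.93%. Whether the counting used strand is not given in the sources used here.

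**Figure D1:**
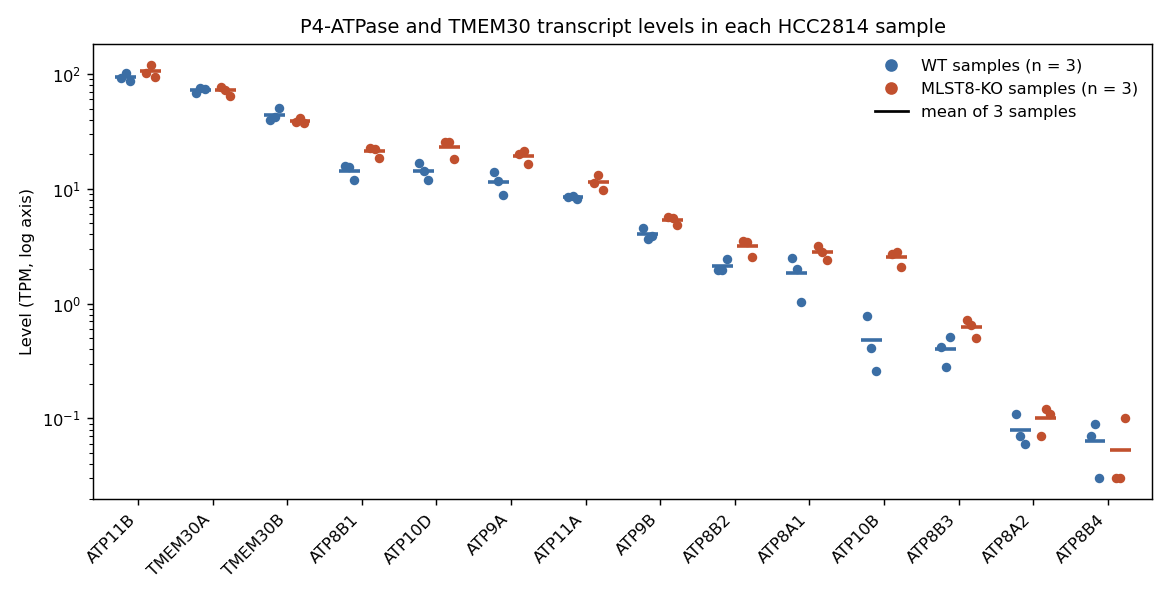
Level of each P4-ATPase and TMEM30 transcript in TPM (log axis) in the 3 WT (blue) and 3 MLST8-KO (orange) samples, ordered by the WT mean; points are samples and lines are means. ATP11B is near 100 TPM in both groups, while ATP10B moves from 0.483 TPM, beside ATP8B3, to 2.53 TPM, beside ATP8A1.

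Levels of different genes were compared per length, in TPM. In WT cells ATP11B was the highest P4-ATPase at 93.4 ± 7.68 TPM, above 90.2% of all genes in the table, followed by ATP8B1 at 14.4 ± 2.09, ATP10D at 14.2 ± 2.41, ATP9A at 11.5 ± 2.51 and ATP11A at 8.43 ± 0.208 TPM (SD, n = 3). ATP8B1 and ATP10D overlapped between samples, as did ATP10D and ATP9A, while ATP9A was above ATP11A in every sample. ATP9B (4.04 TPM), ATP8B2 (2.14) and ATP8A1 (1.84) came next, with overlap between the last 2 of these. ATP10B stood eleventh among the 14 flippase and TMEM30 genes reported here at 0.483 ± 0.268 TPM, and its samples overlapped those of ATP8B3 at 0.403 ± 0.116 TPM. The lowest, ATP8A2 and ATP8B4, had 4 to 9 and 1 to 4 counts per sample, and did not pass the filter on low counts.

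In MLST8-KO cells ATP10B remained in eleventh place, but its neighbours changed. At 2.53 ± 0.395 TPM it overlapped ATP8A1 (2.80 ± 0.401 TPM) and was above ATP8B3 (0.623 ± 0.112 TPM) in every sample. ATP10D (23.2 ± 4.21 TPM), ATP8B1 (21.3 ± 2.21) and ATP9A (19.2 ± 2.56) came in this order, each overlapping the one after it, and ATP9A was above ATP11A (11.4 ± 1.67 TPM) in every sample. ATP10B therefore contributed 0.314 ± 0.159% of the summed TPM of the 12 P4-ATPases in the WT group and 1.29 ± 0.0651% of it after MLST8 loss. It was above 26.5% of all genes in the table by its mean TPM in WT, and above 36.7% in MLST8-KO, so it stayed a transcript of low level.

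ATP10D, the closest relative of ATP10B in the table and a glucosylceramide flippase, was higher in MLST8-KO cells. It lies at chr4:47485288-47593486 on the plus strand. Its levels were 16.7, 14.2 and 11.9 TPM in WT and 25.5, 25.7 and 18.3 TPM in MLST8-KO samples, so that every MLST8-KO sample was above every WT sample. The log2 fold change was 0.59 (SE 0.14, adjusted p = 0.0112 by edgeR's quasi-likelihood test over the 12951 genes). Leaving out replicate 1 of the MLST8-KO samples gave 0.52 with an adjusted p of 0.0534, and leaving out replicate 2 gave 0.53 with an adjusted p of 0.0527, past the threshold in neither edgeR fit.

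The region before the start of both genes is shown because they are related genes that were both higher. These are the 250 bases before the start given by RefSeq on GRCh38.p14, on the strand of the gene, at chr5:160852212-160852461 (minus) for ATP10B, where RefSeq lists 2 starts and the outer one is shown, and at chr4:47485025-47485274 (plus) for ATP10D. Capitals mark matches on either strand to the TATA motif (TATAAA), the CAAT box (CCAAT), the GC box (GGGCGG) or the E-box (CACGTG).
ATP10B: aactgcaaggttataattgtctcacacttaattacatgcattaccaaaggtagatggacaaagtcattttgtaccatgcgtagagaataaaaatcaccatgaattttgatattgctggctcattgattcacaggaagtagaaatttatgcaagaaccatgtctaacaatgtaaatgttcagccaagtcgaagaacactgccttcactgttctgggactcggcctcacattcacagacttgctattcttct
ATP10D: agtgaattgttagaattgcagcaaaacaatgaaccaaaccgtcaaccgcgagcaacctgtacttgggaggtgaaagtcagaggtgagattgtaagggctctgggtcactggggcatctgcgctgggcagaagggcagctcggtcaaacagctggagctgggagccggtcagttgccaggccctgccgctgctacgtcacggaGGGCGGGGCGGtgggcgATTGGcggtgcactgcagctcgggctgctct

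The ATP10B sequence was 38.0% G and C with 3 CpG dinucleotides and held none of these motifs, and the ATP10D sequence was 60.0% G and C with 14 CpG, 2 overlapping matches to the GC box and 1 to the CAAT box on the reverse strand. Over 35116 RefSeq sequences of the same length the median was 58.0% G and C and 11 CpG, and 42.6% held the GC box, 32.0% the CAAT box, 10.7% the TATA motif and 6.34% the E-box. ATP10B had more CpG than 22.9% of them and ATP10D more than 55.2%. Both genes were higher in MLST8-KO cells, with sequences before the start that differed in base composition and in these letters. Which start the cells used was not measured.

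The genes on either side of ATP10B were read to see whether they moved with it. On the side of lower coordinates, PTTG1, SLU7 and ZBED8, which lie 134 to 163 kb away, had log2 fold changes of -0.03, -0.29 and 0.08 (adjusted p = 0.816, 0.0974 and 0.776 by edgeR's quasi-likelihood test). On the other side, CCNG1 at 2585 kb had -0.17 (adjusted p = 0.155 by the same edgeR test), and GABRB2 at 436 kb had 0 or 1 count per sample and was not tested. None of these tested neighbours passed the threshold.

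ATP9A, an endosomal P4-ATPase that acts in the recycling of membrane proteins and needs no TMEM30 subunit, differed most of the flippase genes after ATP10B. It lies at chr20:51596514-51768634 on the minus strand. The samples were at 13.9, 11.6 and 8.87 TPM in WT and at 20.1, 21.2 and 16.3 TPM in MLST8-KO cells. Its groups did not overlap, and WT replicate 3 was the lowest sample, as it was for ATP10B and ATP10D. The log2 fold change was 0.63 (SE 0.14, adjusted p = 0.00957 by edgeR's quasi-likelihood test), and it stayed past the threshold when each of the 6 samples was left out in turn (log2 fold change 0.49 to 0.79).

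Of the phosphatidylcholine flippases of the ATP8B group, ATP8B1 rose and ATP8B2 did not pass the test. ATP8B1, a plasma membrane pump whose loss causes inherited cholestasis, lies at chr18:57646426-57803315 on the minus strand. It was at 15.8, 15.4 and 12.02 TPM in WT and at 22.8, 22.3 and 18.7 TPM in MLST8-KO samples, without overlap. Its log2 fold change was 0.45 (SE 0.11, adjusted p = 0.0128 by edgeR's quasi-likelihood test), and the adjusted p became 0.0611 when MLST8-KO replicate 1 was left out and 0.0513 when replicate 2 was.

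ATP8B2, at chr1:154325553-154351307 on the plus strand, was at 1.98, 1.97 and 2.46 TPM in WT and at 3.53, 3.45 and 2.57 TPM in MLST8-KO cells. After TMM scaling MLST8-KO replicate 3 (7.62 CPM) was below WT replicate 3 (8.08 CPM), so the groups touched. The log2 fold change was 0.44 (SE 0.17, adjusted p = 0.0750 by edgeR's quasi-likelihood test). With edgeR the adjusted p was 0.0487 without MLST8-KO replicate 3 and 0.0355 without WT replicate 3, and with limma on log2(TPM + 1) it was 0.0458, so a difference of this size could not be settled with these samples.

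The ATP11 group moves phosphatidylserine and phosphatidylethanolamine, ATP11A at the plasma membrane and ATP11B mainly at endosomes and the Golgi. ATP11A, at chr13:112690329-112887168 on the plus strand, was at 8.5, 8.6 and 8.2 TPM in WT and at 11.3, 13.1 and 9.79 TPM in MLST8-KO samples. Its WT samples were close together and all below the MLST8-KO samples. The log2 fold change was 0.32 (SE 0.10, adjusted p = 0.0303 by edgeR's quasi-likelihood test), the smallest of those called. The adjusted p by edgeR was 0.0832 when MLST8-KO replicate 1 was left out (log2 fold change 0.33). It was 0.109 when MLST8-KO replicate 2 was left out (0.23) and 0.0902 when WT replicate 2 was (0.32).

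ATP11B, the most abundant P4-ATPase, was not called. It lies at chr3:182793500-182921635 on the plus strand and was at 92.5, 102 and 86.2 TPM in WT and at 102, 121 and 93.3 TPM in MLST8-KO cells. These groups overlapped, and the log2 fold change was 0.10 (SE 0.10, adjusted p = 0.446 by edgeR's quasi-likelihood test). ATP11B made up 61.9 ± 2.87% of the summed P4-ATPase TPM in WT and 54.0 ± 2.06% in MLST8-KO cells, with every MLST8-KO sample (51.6 to 55.2%) below every WT sample (58.6 to 63.7%).

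TMEM30A, the subunit that most of these pumps require, did not pass the test. At chr6:75252924-75284968 on the minus strand, it was at 68.2, 75.3 and 74.6 TPM in WT and at 77.8, 73.2 and 64.8 TPM in MLST8-KO samples. The groups overlapped fully, and the log2 fold change was -0.13 (SE 0.08, adjusted p = 0.267 by edgeR's quasi-likelihood test). Its relative TMEM30B had 1440, 1452 and 1725 counts in WT and 1320, 1462 and 1342 in MLST8-KO cells, and after TMM scaling every MLST8-KO sample was below every WT sample, as in 24.2% of all genes tested. Its log2 fold change of -0.29 (SE 0.10) missed the threshold with edgeR's quasi-likelihood test (adjusted p = 0.0544) and passed it with DESeq2 (adjusted p = 0.0405) and with edgeR without WT replicate 1 (adjusted p = 0.0124). PRKCH, which is also in the table, overlaps 7.96% of the exonic bases of TMEM30B on the other strand.

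**Figure D2:**
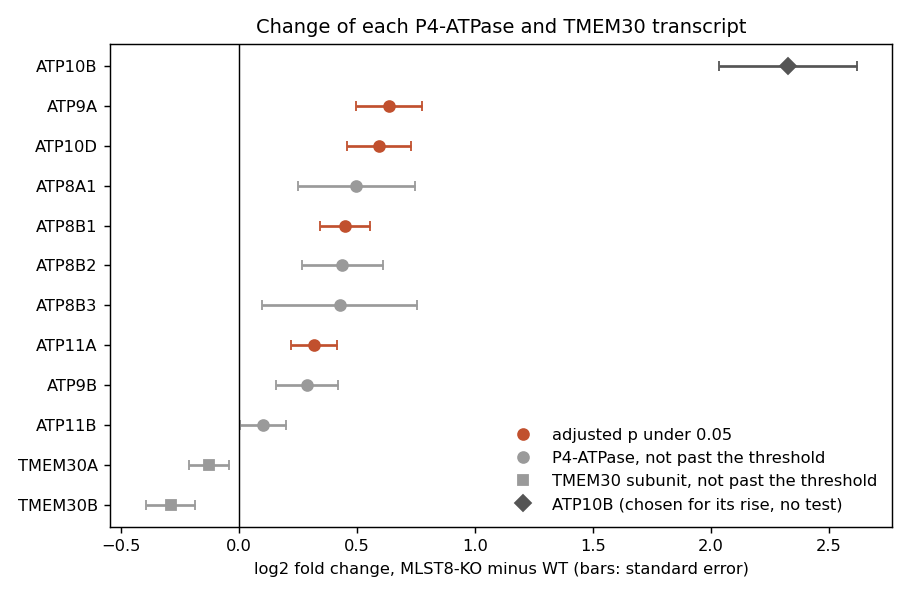
Log2 fold change of MLST8-KO against WT for the 10 tested P4-ATPases (circles) and 2 TMEM30 subunits (squares), with bars for the standard error; orange marks an adjusted p under 0.05, and the diamond marks ATP10B, which was chosen for its rise and is not tested. The 9 other P4-ATPases lie between 0.10 and 0.63, and TMEM30A and TMEM30B lie at -0.13 and -0.29.

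Of the 7 tested genes other than ATP10B, ATP10D, ATP11A, ATP8B1 and ATP9A were higher and none was lower. Over all genes tested 16.3% were higher by the same rule. Of the 7 genes, 4 had every MLST8-KO sample above every WT sample, beside 24.8% of all genes tested, and they were the 4 called genes. With DESeq2, by which 13.5% of all genes were higher and 14.6% lower, the same 4 genes were called higher (adjusted p = 0.000256 to 0.0363). Without MLST8-KO replicate 1, and likewise without MLST8-KO replicate 2, ATP9A alone of the 4 stayed past the threshold with edgeR. Without MLST8-KO replicate 1 the genes that were not called had log2 fold changes of 0.36 for ATP8B2, 0.12 for ATP11B, -0.18 for TMEM30A and -0.27 for TMEM30B (adjusted p = 0.219, 0.481, 0.211 and 0.156 by edgeR). Since the genes were put together with results of this contrast known, nothing is read from these shares. The P4-ATPases reported here from outside the 9 genes gave 0 calls of 3 tested with edgeR. All 3 log2 fold changes were positive, with a median of 0.43 beside 0.0045 over all genes, and nothing is read from this either. ATP8A1, a phosphatidylserine flippase of endosomes, had 168, 130 and 66 counts in WT and 206, 188 and 161 in MLST8-KO samples (log2 fold change 0.50, SE 0.25, adjusted p = 0.148 by edgeR). Its lowest sample was again WT replicate 3. By edgeR its adjusted p was 0.0165 without WT replicate 1 (log2 fold change 0.77) and 0.341 without WT replicate 3 (0.22). Without MLST8-KO replicate 1, ATP8A1, ATP8B3 and ATP9B were at 0.40, 0.45 and 0.23 (adjusted p = 0.342, 0.444 and 0.310 by edgeR).

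ATP9B, the relative of ATP9A in the trans-Golgi network, had 166, 131 and 139 counts in WT and 204, 197 and 177 in MLST8-KO cells (log2 fold change 0.29, SE 0.13, adjusted p = 0.119 by edgeR), and its groups did not overlap after scaling. ATP8B3, with 9 to 11 counts in WT and 13 to 17 in MLST8-KO samples, did not overlap either (0.43, SE 0.33, adjusted p = 0.335 by edgeR), and its standard error was the widest of the flippase genes reported here.

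The same samples tended to be high or low across the family. WT replicate 1 was the highest WT sample for 6 of the 10 tested P4-ATPases and WT replicate 3 the lowest for 7. MLST8-KO replicate 3 was the lowest MLST8-KO sample for 9 of 10, and replicates 1 and 2 were the highest for 5 and 4. The calls of these genes share this variation, so they are not read as independent of each other. How often each sample was highest or lowest over all genes was not counted. WT replicates 1 and 3 differed more across genes than any other pair within a group (chi-square per gene 25.2). APCDD1, CXCL14 and the median squamous marker, described below, had the same order of WT samples as ATP10B. The pattern is therefore not read as particular to the family.

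Flippase genes are long, and the median log2 fold change of all genes rose with transcript length in these samples, from -0.12 in the shortest of 10 equal bins to 0.12 in the longest. The 12 tested flippase and TMEM30 genes lay in bins 6 to 10. Less the median of its own bin, the log2 fold change was 2.21 for ATP10B, 0.51 for ATP10D and for ATP9A, 0.37 for ATP8B1, 0.36 for ATP8B2 and 0.20 for ATP11A. It was -0.020 for ATP11B, where the sign turned, -0.19 for TMEM30A and -0.35 for TMEM30B. The part of length in these results was not tested beyond this subtraction.

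Summed levels show how the pumps stood against their subunits. The 12 P4-ATPases together were at 158, 159.9 and 135 TPM in WT and at 198, 218 and 169 TPM in MLST8-KO cells. Without ATP11B they were at 65.3, 58.35 and 49.2 TPM in WT and at 95.6, 97.7 and 75.75 TPM in MLST8-KO cells. Both sums were higher in every MLST8-KO sample than in any WT sample. TPM leaned toward MLST8-KO over all genes, with a median log2 fold change of 0.092 by limma on log2(TPM + 1), against 0.0045 by edgeR with TMM scaling. Of single genes tested, 24.8% had every MLST8-KO sample above every WT sample by CPM. TMEM30A and TMEM30B together were at 117 ± 8.46 TPM in WT and 111 ± 7.76 TPM in MLST8-KO cells, with overlap. Of these 12, the P4-ATPases other than ATP9A and ATP9B stood to the 2 subunits as 1.17 ± 0.163 to 1 in WT and 1.53 ± 0.120 to 1 in MLST8-KO cells (SD, n = 3). The ranges of this ratio, 0.982 to 1.29 in WT and 1.45 to 1.67 in MLST8-KO samples, did not overlap. These are ratios of transcripts, not of proteins, and no test is given for them since the genes were picked with results known.

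**Figure D3:**
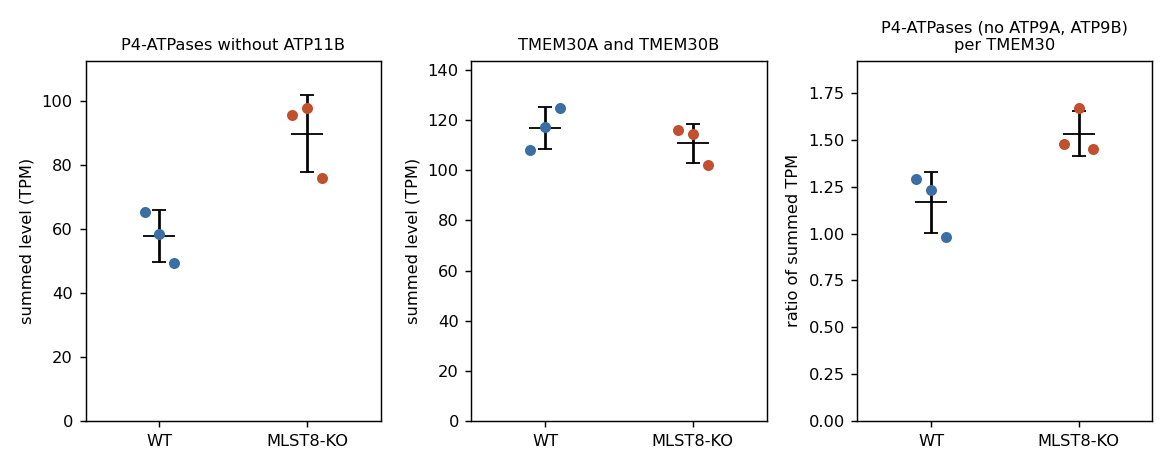
Summed TPM of the P4-ATPases without ATP11B (left) and of TMEM30A and TMEM30B (middle), and the ratio of the P4-ATPases other than ATP9A and ATP9B to the TMEM30 subunits (right), for 3 WT and 3 MLST8-KO samples; points are samples, and bars are the mean ± SD. The left and right panels show no overlap between the groups, while the TMEM30 sums overlap at 117 ± 8.46 and 111 ± 7.76 TPM.

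The 5 genes whose values lay closest to those of ATP10B were APCDD1, KRT6C, CXCL14, AMTN and KRT13. Likeness was measured as the root mean square difference of log2 CPM over the 6 samples, each gene taken against its own WT mean, among 11187 genes with a mean of at least 50 counts. This difference was 0.149 for APCDD1, a membrane inhibitor of Wnt signaling, 0.210 for KRT6C, a keratin, 0.304 for CXCL14, an epithelial chemokine, 0.305 for AMTN, which encodes the enamel protein amelotin, and 0.319 for KRT13, a keratin of stratified mucosa. APCDD1 had 175, 100 and 51 counts in WT and 661, 561 and 500 in MLST8-KO samples, and CXCL14 had 5853, 3324 and 2196 in WT and 15840, 14443 and 15599 in MLST8-KO cells. As with ATP10B, WT replicate 1 was the highest and WT replicate 3 the lowest of the WT samples in both. KRT6C shares long near-identical stretches with KRT6A and KRT6B, so its counts are uncertain. The flippase gene closest to ATP10B by this measure was ATP9A, in rank 582 with a difference of 1.25, followed by ATP8A1 in rank 739 and ATP10D in rank 757. This measure takes in the shift between the groups, by which ATP10B was chosen, so it ranks genes largely by how near their fold changes are. The 5 closest genes had log2 fold changes of 1.91 to 2.65. Likeness beyond that shift was not tested.

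Markers of the squamous lineage were also higher in MLST8-KO cells. Summed over the 8 markers, counts were 313311, 235619 and 189715 in WT and 416738, 388400 and 397943 in MLST8-KO samples, with 8 of 8 genes called higher, beside 16.3% of all genes (median log2 fold change 0.84), and none at 0 in any sample. KRT5, KRT6A and TP63 missed the threshold without MLST8-KO replicate 1 (adjusted p = 0.0693, 0.0917 and 0.0716 by edgeR). These 3 and DSG3 missed it without MLST8-KO replicate 2 (adjusted p between 0.0517 and 0.0777) and without WT replicate 2 (between 0.0600 and 0.0980), and KRT5 and KRT6A without MLST8-KO replicate 3 (0.0525 and 0.0888). The median of the markers followed the same order of WT samples as ATP10B, 0.43, -0.01 and -0.37 against 0.77, -0.12 and -0.65 (log2 CPM less the WT mean). In MLST8-KO cells the marker median was at 0.95, 0.73 and 0.84, and ATP10B was at 2.45, 2.51 and 2.16. The order was not shared there, since replicate 2 was the lowest for the markers and the highest for ATP10B. The part of the markers in the ATP10B values was not tested. Lung adenocarcinoma markers (3 genes) summed to 25 to 61 counts in WT and 139 to 166 in MLST8-KO samples, fibroblast markers (5 genes) to 457 to 512 and 525 to 605, and endothelial markers (3 genes) to 42 to 51 and 27 to 45. Nearly all of the lung adenocarcinoma sum came from NKX2-1, singled out after its values were seen. NKX2-1 had 59, 40 and 24 counts in WT and 166, 163 and 138 in MLST8-KO samples (log2 fold change 1.81, SE 0.24). Of 4 immune markers 2 were in the table, and they summed to 804 to 1080 counts in WT and 625 to 893 in MLST8-KO samples. Nearly all of these counts were of CD68, also singled out after its values were seen, since PTPRC had 0 or 1 count per sample.

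**Figure D4:**
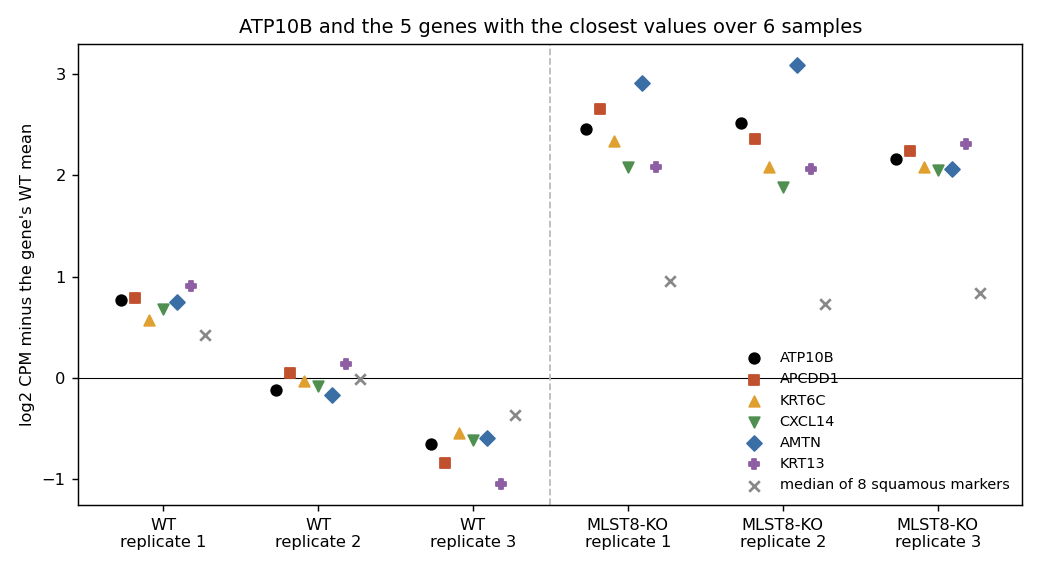
Log2 CPM of ATP10B, of the 5 genes closest to it and of the median squamous marker in each sample, each less its WT mean. WT samples run from 0.77 in replicate 1 to -0.65 in replicate 3 for ATP10B, and its MLST8-KO samples lie between 2.16 and 2.51, above the marker median at 0.73 to 0.95.

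The other genes of membrane lipid transport were read from 6 lists, of which 108 genes were tested, 24 were higher and 14 lower, beside 16.3% and 15.7% over all genes. The other P-type ATPases, which share the phosphorylated aspartate with the flippases but move ions or other cargo, had 9 higher and 3 lower of 16 tested (median log2 fold change 0.37). ATP2A3, a calcium pump of the endoplasmic reticulum, had 95, 73 and 66 counts in WT and 183, 177 and 172 in MLST8-KO samples (log2 fold change 1.07, SE 0.15, adjusted p = 0.00281 by edgeR). ATP7A, a copper exporter, rose by 0.97 (SE 0.19), and ATP1B1, a subunit of the sodium pump, by 0.85 (SE 0.17). ATP1B2, another sodium pump subunit, fell by 1.26 (SE 0.41) from 14 to 19 counts in WT to 4 to 11 in MLST8-KO samples. Its call was lost with DESeq2 (adjusted p = 0.118) and with edgeR without WT replicate 2 or 3 or MLST8-KO replicate 2 or 3 (adjusted p = 0.0781, 0.109, 0.126 and 0.0968).

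Scramblases let phospholipids pass in both directions and so undo the asymmetry that flippases build. Of 11 tested, 3 were higher and 3 lower (median log2 fold change -0.11). PLSCR4, of the phospholipid scramblase family, rose by 1.89 (SE 0.42) from 6 to 10 counts in WT to 18 to 45 in MLST8-KO samples, and PLSCR1 rose by 0.57 (SE 0.12). TMEM41B, a scramblase of the endoplasmic reticulum, fell by 0.54 (SE 0.10), and XKR9, a scramblase activated in apoptosis, fell by 0.79 (SE 0.21). The call of XKR9 was lost with edgeR without WT replicate 2 or MLST8-KO replicate 1 or 3 (adjusted p = 0.0550, 0.0597 and 0.0585). ABC transporters, which export lipids toward the outer leaflet, had 0 higher and 2 lower of 10 tested with edgeR: ABCG1, a sterol exporter, fell by 0.54 (SE 0.15) and ABCA3, a surfactant lipid transporter, by 0.47 (SE 0.16). Both calls were lost without WT replicate 2 (adjusted p = 0.0892 and 0.103 by edgeR), MLST8-KO replicate 1 (0.0723 and 0.0940) or MLST8-KO replicate 2 (0.0796 and 0.135), and that of ABCA3 also without WT replicate 3 (0.0977) and with DESeq2 (0.0732).

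Enzymes of phospholipid synthesis had 4 higher and 3 lower of 23 tested (median log2 fold change 0.03). PTDSS1, which makes phosphatidylserine, had 2538, 1834 and 1356 counts in WT and 3378, 3334 and 3132 in MLST8-KO cells (log2 fold change 0.67, SE 0.16, adjusted p = 0.0118 by edgeR), and missed the threshold without WT replicate 2 (adjusted p = 0.0527 by edgeR). PCYT1B, an enzyme of phosphatidylcholine synthesis, rose by 1.34 (SE 0.37) from 6 to 7 counts to 13 to 22. Its call was lost with DESeq2 (adjusted p = 0.0957) and with edgeR without WT replicate 2 or MLST8-KO replicate 1 or 2 (adjusted p = 0.0770, 0.0702 and 0.0799). The lysophospholipid acyltransferases LPCAT2 and LPCAT4 went apart, with LPCAT2 higher by 0.52 (SE 0.12) and LPCAT4 lower (log2 fold change -0.51, SE 0.10), and LPCAT2 was at an adjusted p of 0.0501 by edgeR without MLST8-KO replicate 2.

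Genes of glucosylceramide and the lipids around it, the cargo known for ATP10B and ATP10D, had 5 higher and 1 lower of 30 tested (median log2 fold change 0.02). A4GALT and B3GALNT1, which extend globosides, rose by 0.70 (SE 0.13) and 0.69 (SE 0.18), and SGMS1, a sphingomyelin synthase, by 0.46 (SE 0.13). PLEKHA8, a glucosylceramide carrier of the Golgi, fell by 0.41 (SE 0.09, adjusted p = 0.00947 by edgeR), and its call was lost with limma on log2(TPM + 0.1) and on log2(TPM + 1) (adjusted p = 0.158 and 0.163). With edgeR, B3GALNT1 lost its call without MLST8-KO replicate 1, 2 or 3 (adjusted p = 0.0632, 0.0515 and 0.0627) and SGMS1 without WT replicate 2 or MLST8-KO replicate 1 or 2 (adjusted p = 0.0966, 0.0927 and 0.0632). UGCG, which makes glucosylceramide and was singled out after its values were seen, had 507, 555 and 427 counts in WT and 532, 502 and 517 in MLST8-KO cells (log2 fold change -0.06, SE 0.10, adjusted p = 0.667 by edgeR).

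Lipid transfer proteins and partners of the flippases had 3 higher and 2 lower of 18 tested (median log2 fold change 0.04). OSBPL5, which carries phosphatidylserine to the plasma membrane, rose by 1.03 (SE 0.18) from 73 to 110 counts in WT to 167 to 225 in MLST8-KO samples. VPS13C, a bridge between membranes at late endosomes, rose by 0.53 (SE 0.13) and OSBPL10 by 0.45 (SE 0.12), while STARD10, a phosphatidylcholine carrier, fell by 0.43 (SE 0.14). With edgeR, the calls of VPS13C and OSBPL10 were both lost without WT replicate 2 or MLST8-KO replicate 1 or 2 (adjusted p between 0.0525 and 0.0883), and that of STARD10 without any sample except WT replicate 1 (adjusted p between 0.0580 and 0.120; log2 fold change -0.24 without WT replicate 3). Among the other named genes of the lists, ATP1B2, ABCG1, ABCA3 and STARD10 also missed the threshold with both limma fits on TPM (adjusted p between 0.0508 and 0.154), PCYT1B with limma on log2(TPM + 1) (0.0685), ABCA3 and STARD10 with upper quartile scaling in edgeR (0.0685 and 0.0532), and ATP1B2 without the filter on low counts (0.0554). MON2, DOP1A and DOP1B, known partners of ATP9A that were singled out after their values were seen, had log2 fold changes of -0.09, -0.13 and 0.27 (adjusted p = 0.557, 0.497 and 0.218 by edgeR), and none passed the threshold while ATP9A did.

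**Figure D5:**
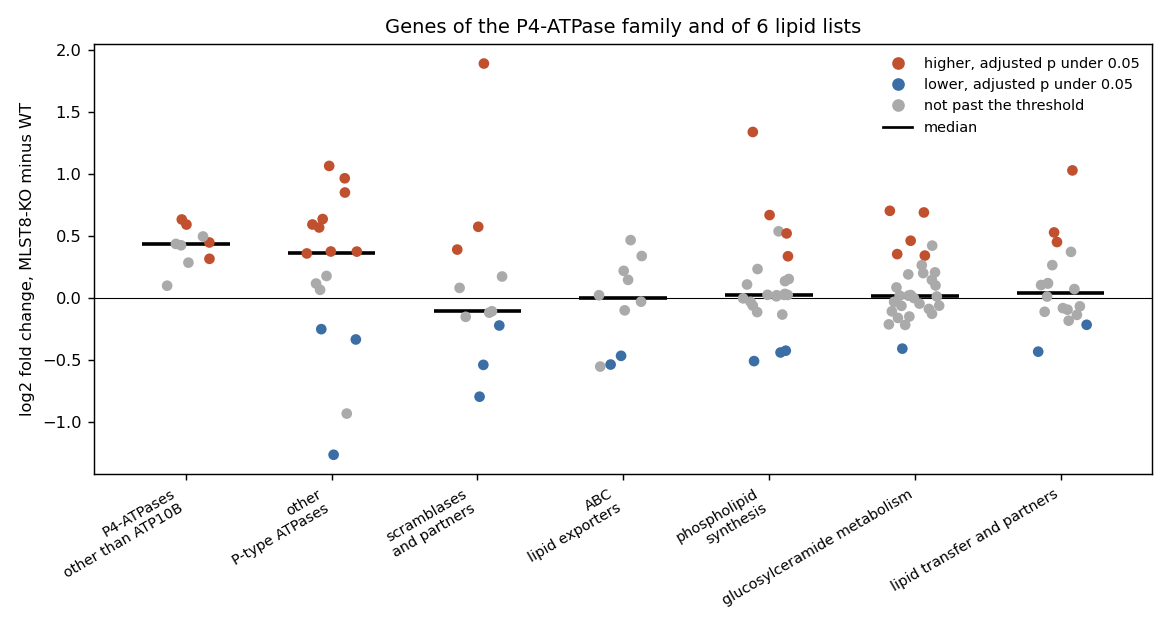
Log2 fold change of each tested gene among the P4-ATPases other than ATP10B and in the 6 lists of membrane lipid transport and synthesis; orange and blue mark genes higher and lower at an adjusted p under 0.05, gray the rest, and lines the medians. The P4-ATPases have no gene below 0 and a median of 0.44, the other P-type ATPases a median of 0.37, and the remaining lists have medians between -0.11 and 0.04.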

How the data were processed

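RNA-seq of 3 WT and 3 MLST8-KO samples of HCC2814 was used. Per the labels and the study's methods, poly(A) libraries were sequenced at BGI, reads were filtered, aligned to GRCh38.p12 with HISAT and assigned to genes with Bowtie2; strandedness is not given in the sources used here. The authors deposited estimated counts, FPKM and TPM for each gene and sample. The estimated counts were not normalized, while the deposited TPM and FPKM were scaled by length and depth. FPKM served as an alternative for shares and, with the counts, to derive the transcript lengths behind the length bins. A second table holds fold changes and p-values of the authors' own comparison and was not used.

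Of the estimated counts, 12.4% were not whole; the design had assumed counts, so they were rounded. Symbols of 25 genes turned into dates were restored through Entrez identifiers. Counts were tested with edgeR 4.0.16 in R 4.3.3 by glmQLFit and glmQLFTest, after filterByExpr with the group given and TMM scaling. P-values were adjusted by Benjamini-Hochberg over 12951 genes with a threshold of 0.05, and the standard error is |log2 fold change| over the root of the F statistic. CPM used TMM-scaled library sizes, with a prior count of 2 for log values. A gene at 0 may have up to 3 counts (0.209 CPM); intervals and this limit cover counting error only. Replicates of a group differed beyond sampling noise (chi-square per gene 6.71 to 25.2). The fit was tested on simulated data. Figures were drawn with matplotlib 3.10.9.

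The alternatives tried were limma 3.58.1 on log2(TPM + 1) and log2(TPM + 0.1), DESeq2 1.42.0, edgeR scaled by upper quartiles or by the size factors of DESeq2, edgeR without the low-count filter, a minimum of 10 counts per sample, the replicate number as a block, a 2-fold minimum, leaving out each sample in turn and, added after seeing the data, removal of the trend with transcript length. The genes and lists were chosen with earlier results of these data known. Named genes were the 9 flippase genes, other P4-ATPases and TMEM30 genes in the table, MLST8, up to 4 called genes with the largest change per list of membrane lipid genes, the 5 genes closest to ATP10B and its 3 nearest genes on either side. Marker lists other than the squamous one are given as sums, with NKX2-1 and CD68 named beside them. Genes named after their values were seen are marked. Some genes and a sequence are not reported here, and the counts and sums over the family and the lists leave those genes out. Positions are from the GENCODE annotation of GRCh38, and the sequences before the start are from RefSeq on GRCh38.p14.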

Additional observations from a re-analysis of the deposited data

How the results depend on the processing

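The direction of every tested flippase gene reported here was kept under the alternatives run, except that ATP11B turned to -0.020 (log2 fold change) with the length trend removed. ATP10B was at 1.26 with limma on log2(TPM + 1), where the added 1 lies above its WT level, and at 2.04 to 2.85 with each sample left out. The 4 higher calls among the flippase genes other than ATP10B became 1 to 5 with a sample left out, and 0 when a 2-fold change was also required. Without MLST8-KO replicate 1 or 2 the count was 1, ATP9A, beside 7.51% and 8.68% of all genes. Lower calls were 0 to 1 with a sample left out and 1, TMEM30B, with DESeq2.

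Over all genes, leaving out a sample gave 969 to 2692 higher and 852 to 2652 lower, and a 2-fold minimum 340 and 219. Counts of higher and lower genes were 969 and 1046 without WT replicate 2, 980 and 852 without MLST8-KO replicate 1 and 1136 and 1097 without MLST8-KO replicate 2. Limma gave 1132 lower on log2(TPM + 0.1) and 1134 on log2(TPM + 1), and the share of calls that were higher was 51.0% in the main comparison, 62.0% with upper quartile scaling and 70.9% and 71.0% with limma. The 24 higher calls of the 6 lipid lists became 11 to 29 with a sample left out (11 without WT replicate 2, 13 and 15 without MLST8-KO replicates 1 and 2) and 4 at a 2-fold minimum. Their 14 lower calls became 4 to 18 with a sample left out (4 and 9 without WT replicates 2 and 3, 5, 8 and 6 without MLST8-KO replicates 1, 2 and 3), 4 with either limma fit, 9 with upper quartile scaling and 1 at a 2-fold minimum. The cause of these shifts was not tested.

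With a replicate block, flippase genes other than ATP10B had 5 higher and 1 lower call, beside 17.5% and 16.7% of all genes: ATP8A1 (0.54, adjusted p = 0.0439 by edgeR) and TMEM30B (-0.28, adjusted p = 0.0491) passed, and ATP10B was at 2.37. Deviations of same-numbered samples correlated at 0.105, 0.0567 and 0.140, and those of other pairs at -0.117 to 0.0202. Each sample therefore correlated best, though weakly, with its own number. Whether same-numbered samples were handled together was not tested, and the main comparison used no block.

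ATP10B, ATP8B3, PCYT1B, PLSCR4 and ATP1B2 rest on few counts in WT, and 3 samples per group limit what the tests can show.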
